A study of Homo sapiens with 6 samples.

Results

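The BCL2 family genes BCL2, BCL2L1, BCL2L2, MCL1, BCL2L11, BAK1, BID, BAD, BIK and BOK were followed through RNA-seq of TCam-2 cells, an established human cell line from a testicular cancer of seminoma type. These 10 genes were taken by name, with earlier results of these data known, and all 10 were found among the 62700 gene rows of the deposited table. The study asked which genes differ in expression or splicing when RBMXL3, an RNA-binding protein related to RBMX, is overexpressed. It has 3 groups with 2 libraries each: cells left without transduction (WT), cells given a FLAG-tagged GFP (GFP) and cells given a FLAG-tagged RBMXL3 (RBMXL3). All groups are the same line in the same medium, so WT differs from RBMXL3 by the transduction, the tag and the gene, while GFP shares the transduction and the tag. The labels name no promoter, vector or clone.

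BCL2 family proteins decide whether the outer mitochondrial membrane stays closed or is opened, the step of intrinsic apoptosis that releases cytochrome c and leads to caspase activation. The survival proteins BCL2, BCL-xL (BCL2L1), BCL-w (BCL2L2) and MCL1 hold the pore-forming proteins BAK (BAK1) and BAX or their activators, while the related pore former BOK is known for escaping that control. The BH3-only proteins, here BIM (BCL2L11), BID, BAD and BIK, use a short helix, the BH3 motif, to bind the groove of the survival proteins or to activate the pore formers. Germ cell tumours are known for their ready apoptosis after DNA damage.

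The BH3 core is the feature that ties these genes together, and it is printed below for each gene as the reference coding sequence holds it. It was searched in frame in the GENCODE 29 coding sequences (GRCh38), on the coding strand, as a leucine codon (TTA, TTG or CTN), any 3 codons, a glycine codon (GGN) and an aspartate codon (GAC or GAT). This strict form was found in 8 of the 10 genes, and in 13.9% of the 19389 genes that have a complete coding sequence. BCL2L2, with a methionine codon in the first place, and BAD, with a serine codon in place of glycine, matched only a looser form, which takes leucine or methionine and then glycine, alanine or serine. That looser form was found in 40.7% of genes, so a match alone is common. Capitals mark the core, and the lower case letters are the 15 bases on either side.
BCL2: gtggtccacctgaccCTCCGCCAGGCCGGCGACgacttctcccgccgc
BCL2L1: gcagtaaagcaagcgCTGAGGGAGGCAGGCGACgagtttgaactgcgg
BCL2L2: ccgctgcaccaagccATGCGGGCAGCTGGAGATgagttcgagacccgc
MCL1: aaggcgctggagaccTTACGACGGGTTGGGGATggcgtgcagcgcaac
BAK1: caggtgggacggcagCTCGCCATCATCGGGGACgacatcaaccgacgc
BOK: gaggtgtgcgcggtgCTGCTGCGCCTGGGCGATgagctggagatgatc
BCL2L11: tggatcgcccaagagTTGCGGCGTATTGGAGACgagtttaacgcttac
BID: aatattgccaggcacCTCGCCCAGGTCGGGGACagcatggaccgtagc
BAD: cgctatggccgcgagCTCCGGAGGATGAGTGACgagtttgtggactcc
BIK: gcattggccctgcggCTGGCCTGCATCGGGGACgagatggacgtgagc

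The printed stretch lies at chr1:150578862-150578909 in MCL1, at chr2:111150088-111150135 in BCL2L11, at chr11:64271619-64271666 in BAD and at chr22:17739412-17739459 in BID. In BOK it is split by an intron and runs from base 241559676 to base 241562367 of chromosome 2. In BID the looser form also matched at codon 25, in addition to the printed match at codon 90 of 195.

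Values in the gene table are called normalised reads below: whole reads after the authors' division by a size factor for each library. Library depth, as whole reads recovered from these values, lay between 17685680 and 29318007, and both RBMXL3 libraries were shallower than the other 4. RBMXL3 itself had 0 reads in the 4 control libraries, which allows up to 3 reads each, and 84 and 68 reads in the RBMXL3 libraries. All 10 seminoma and germ cell markers on the list used to check the line were expressed, with a summed level between 122323 and 140191 normalised reads. Of these, 3 of the 10 were called in RBMXL3 against GFP, beside 20.9% of all tested genes. KIT (2578 and 2403 in WT, 1802 and 1926 in GFP, 1411 and 1429 in RBMXL3) and LIN28A were lower and DPPA4 higher. The embryonal carcinoma list summed to 1958 to 2657, nearly all of it DNMT3B (1943 to 2623), which was not called against GFP. Its other gene, SOX2 (11.7 to 31.3 in the controls, 32.2 and 34.2 in RBMXL3), was called against GFP. The other cell type lists were low for blood (sum 0 to 1.06, with CD3E at 0 in every library), stratified epithelium (1.29 to 7.42) and endothelium (143 to 221). The fibroblast list summed to 8380 to 9576 in WT, 11755 to 13225 in GFP and 12157 to 12996 in RBMXL3, nearly all of it COL1A2, while DCN was at most 1.69. Its member LUM was called higher against GFP, with 79.6 and 65.4 in WT, 131 and 179 in GFP, against 425 and 421 in RBMXL3, and COL1A1 was at 206 and 235, 384 and 335, and 399 and 407 in the same order. The part of these markers in the results below was not tested. Nothing in the labels says that the libraries of a group came from separate cultures, so the p-values measure the spread between these libraries, which may be technical. No batch or date is given, and preparation and group cannot be told apart.

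Levels were set against each other as TPM, which is scaled by transcript length, summed over the transcripts of a gene (mean over the 6 libraries, then lowest to highest). MCL1, a short-lived survival protein, was the most abundant at 231 TPM (193 to 259), followed by the survival gene BCL2L1 at 82.7 (66.0 to 98.3). Next came BAD, a BH3-only sensitiser, at 48.7 TPM (39.3 to 61.3), and the pore former BAK1 at 39.8 (38.3 to 43.6). BCL2L2 stood at 11.8 TPM (9.73 to 14.6), BID at 9.54 (6.17 to 11.8), BOK at 5.95 (4.93 to 6.71) and BCL2L11 at 3.36 (2.7 to 4.06). BIK, at 0.581 TPM (0.349 to 0.913), and BCL2, at 0.292 (0.222 to 0.451), were lowest. Among the 14262 genes tested in summed TPM, MCL1 lay at percentile 95.6, BCL2L1 at 87.0 and BCL2L11 at 23.2. Neighbours whose libraries overlapped were BAD and BAK1, BCL2L2 and BID, BID and BOK, and BIK and BCL2, so the ranges over libraries do not separate these pairs, although within each of the 6 libraries the order of all 10 genes was the same. Among the 4 survival genes MCL1 and BCL2L1 thus held most of the TPM and BCL2 the least.

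**Figure D1:**
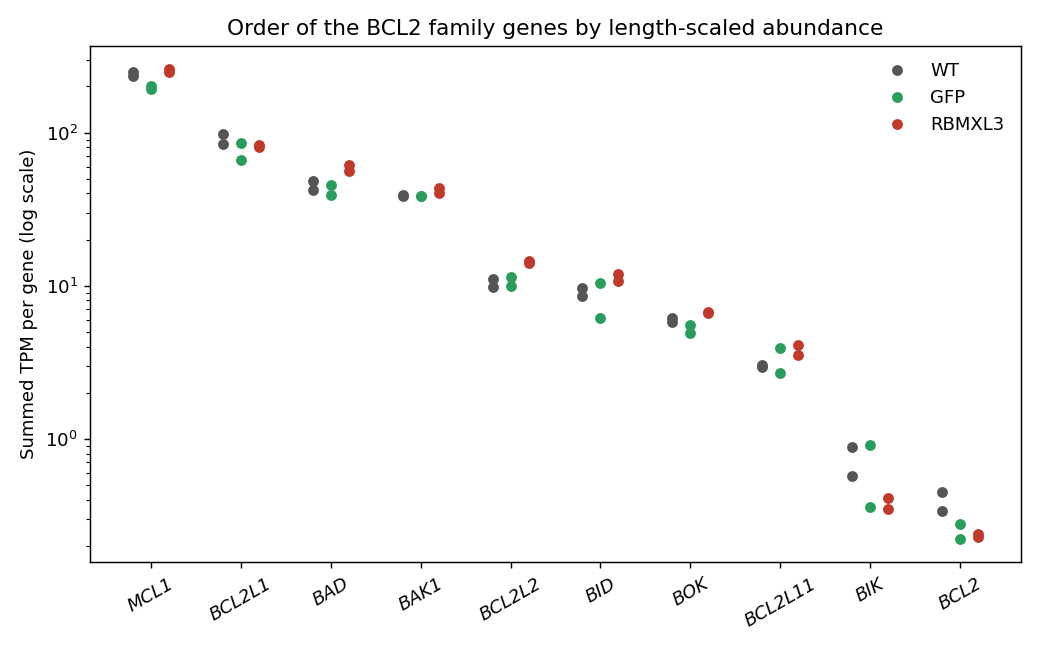
Summed TPM per gene (log scale) for the 10 BCL2 family genes, 1 point per library and 2 libraries per group, with genes ordered by their mean. MCL1 lies highest (193 to 259 TPM) and BCL2 lowest (0.222 to 0.451 TPM), and the order of the group means is the same in all 3 groups.

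Of the 10 genes, 9 passed the filter on low values and BIK did not, so 9 were tested. In RBMXL3 against GFP 0 of the 9 were called by limma at an adjusted p under 0.05, where 20.9% of all 14292 tested genes were called. At an unadjusted p under 0.05 limma counted 1, edgeR counted 2 with 0 called, and DESeq2 counted 1 and called it, MCL1. In RBMXL3 against WT 2 of the 9 were called, BCL2L11 and BAD, both higher, where 29.9% of all genes were called and 14.6% were called higher. Here edgeR called 2 and DESeq2 called 1. Between the controls, GFP against WT, limma called 0 of the 9 with 1 at an unadjusted p under 0.05, edgeR and DESeq2 each gave the same pair of counts, and 3.67% of all genes were called. None of the 9 was called in the same direction against both controls, where 13.7% of all genes were. The RBMXL3 libraries enter both of these comparisons, which are therefore not independent. The median log2 change of the 9 genes was 0.046 against GFP and 0.061 against WT, beside 0.0009 and -0.014 over all genes tested. In all of these comparisons a change per library of bulk RNA cannot tell fewer cells that express a gene from less RNA per cell.

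**Figure D2:**
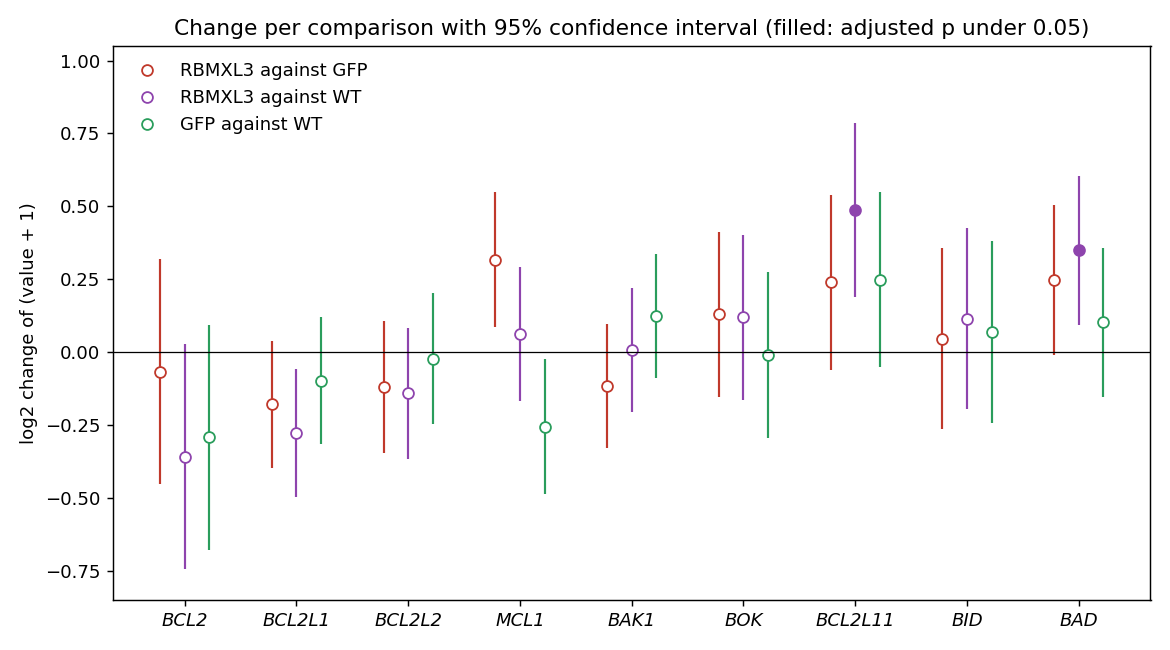
Log2 change of (value + 1) with its 95% confidence interval from limma for the 9 tested genes, in 3 comparisons of 2 libraries against 2. Filled points, BCL2L11 and BAD in RBMXL3 against WT, passed an adjusted p under 0.05, and the MCL1 interval against GFP (0.09 to 0.55) lies above 0 without passing.

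Among the survival genes, MCL1 (chr1:150574551-150579738, minus strand) had 14094 and 14641 normalised reads in WT, 11171 and 12946 in GFP, against 14995 and 14974 in RBMXL3. Both RBMXL3 libraries lay above all 4 controls, the WT libraries lay close below them, and both GFP libraries were lowest. Against GFP the log2 change was 0.32 (SE 0.11, 95% interval 0.09 to 0.55), with a limma adjusted p of 0.0514, just outside the threshold. Against WT it was 0.061 (interval -0.17 to 0.29, limma adjusted p 0.696), and GFP against WT gave -0.26 (interval -0.49 to -0.03, adjusted p 0.183). The spread between the GFP libraries weighed on these values. Without GFP replicate 2, MCL1 was called both in RBMXL3 against GFP (0.42, limma adjusted p 0.0028) and in GFP against WT (-0.36, adjusted p 0.012). With GFP replicate 1 left out the values were 0.21 (limma adjusted p 0.0809) and -0.15 (0.279). Quantile normalization also brought the change against GFP past the threshold, at 0.53 (limma adjusted p 0.006).

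BCL2L1 (chr20:31664452-31723989, minus strand), the gene of BCL-xL, had 5378 and 4603 normalised reads in WT, 4658 and 4631 in GFP, against 4062 and 4134 in RBMXL3. Both RBMXL3 libraries were below every control. The log2 change was -0.18 against GFP (SE 0.10, limma adjusted p 0.227) and -0.28 against WT (SE 0.10, 95% interval -0.50 to -0.06, adjusted p 0.0534). WT replicate 1 stood well above WT replicate 2. Without WT replicate 1 the change against WT was -0.17 (limma adjusted p 0.348), and without WT replicate 2 it was -0.39 and was called (adjusted p 0.0403). It was also called when either GFP library was left out (limma adjusted p 0.0134 and 0.0133), with the same change. Exons of ABALON lie opposite 43.0% of the exon bases of BCL2L1. ABALON itself had 28 and 14 reads in WT, 22 and 12 in GFP, against 1 in each RBMXL3 library, few beside the 3155 to 6352 reads of BCL2L1. Whether the counting used strand is not given in the sources used here, so reads of overlapping genes on opposite strands may not have been told apart.

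BCL2L2 (chr14:23298790-23311759, plus strand) had 709 and 693 normalised reads in WT, 697 and 682 in GFP, against 639 and 627 in RBMXL3. The RBMXL3 libraries were below all controls, by -0.12 against GFP and -0.14 against WT on the log2 scale (limma adjusted p 0.445 and 0.32). In summed TPM the order was the opposite, with 14.1 and 14.6 TPM in RBMXL3 against 9.73 to 11.3 in the 4 controls, a log2 difference of 0.40 and 0.44 (limma adjusted p 0.0921 and 0.0656). No direction can therefore be given for BCL2L2. It shares 19.4% of its exon bases, on the same strand, with the readthrough gene BCL2L2-PABPN1, which had 0 to 2 reads per library, so its count is uncertain.

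BCL2 (chr18:63123346-63320128, minus strand), the founding member of the family, was low in every library: 39 and 49 reads were counted in WT, 24 and 28 in GFP, against 20 in each RBMXL3 library. As normalised reads these were 33.0 and 41.1, 22.2 and 29.7, and 25.7 and 21.4. Both WT libraries were above the rest, while RBMXL3 and GFP overlapped. The log2 change of (value + 1) was -0.36 against WT (SE 0.18, limma adjusted p 0.145) and -0.067 against GFP (adjusted p 0.821), with 95% intervals of -0.75 to 0.03 and -0.45 to 0.32. At values this low the added 1 makes these changes and intervals smaller than those of the reads. On the reads edgeR gave -0.65 against WT and -0.13 against GFP, and DESeq2 -0.64 and -0.13, none of them called. BCL2 did not pass the filter in summed TPM.

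Of the pore formers, BAK1 (chr6:33572547-33580293, minus strand) had 1329 and 1289 normalised reads in WT, 1478 and 1378 in GFP, against 1285 and 1346 in RBMXL3. The 2 GFP libraries were highest, and RBMXL3 overlapped WT. Its log2 changes were -0.12 against GFP (95% interval -0.33 to 0.10) and 0.007 against WT (-0.21 to 0.22), with limma adjusted p of 0.429 and 0.966. BOK (chr2:241551424-241574138, plus strand), a relative of BAK and BAX, had 229 and 212 in WT, 210 and 228 in GFP, against 250 and 233 in RBMXL3. Both RBMXL3 libraries were above all controls, the lower of them at 233 against 229 in the highest control, and the changes of 0.13 and 0.12 were not called (limma adjusted p 0.52 in each). BAX, the third pore former, was on the list of other family genes and rose against WT by 0.37 (limma adjusted p 0.0175) without a call against GFP.

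Of the BH3-only genes, BCL2L11 (chr2:111119378-111168447, plus strand), the gene of BIM, had 175 and 171 normalised reads in WT, 217 and 203 in GFP, against 277 and 230 in RBMXL3. The 3 groups did not overlap, with WT lowest and RBMXL3 highest. Both RBMXL3 libraries were above all 4 controls in 22.5% of all tested genes, and the share with 3 separate groups is not given here. It rose in RBMXL3 against WT by 0.49 on the log2 scale (SE 0.14, 95% interval 0.19 to 0.79, limma adjusted p 0.0195), a mean of 253 ± 33.2 against 173 ± 2.91 normalised reads (SD, n = 2). Against GFP the change was 0.24 (interval -0.06 to 0.54, limma adjusted p 0.241), and GFP against WT gave 0.25 (adjusted p 0.312), so RBMXL3 and WT were separated by 2 steps of like size and neither step alone was called. The reads behind these values were 207 and 204 in WT, 235 and 192 in GFP, against 215 in each RBMXL3 library. The call against WT was lost when any of the WT or RBMXL3 libraries was left out, each of which leaves 1 library in a group, at 0.36 to 0.61 on the log2 scale and limma adjusted p of 0.0522 to 0.236. It was also lost without the filter on low values (limma adjusted p 0.0714). In summed TPM both RBMXL3 libraries (4.06 and 3.51) were above WT (3.01 and 2.95) but overlapped GFP (3.92 and 2.7), and the change against WT was 0.26 (limma adjusted p 0.379). Exons of the noncoding gene MIR4435-2HG, not called in any comparison, lie opposite 10.9% of the exon bases.

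BAD (chr11:64269830-64284704, minus strand), whose binding to BCL-xL is blocked by phosphorylation downstream of growth factors, had 515 and 446 normalised reads in WT, 497 and 536 in GFP, against 596 and 638 in RBMXL3. Both RBMXL3 libraries were above every control, and WT and GFP overlapped. BAD rose against WT by 0.35 (SE 0.12, 95% interval 0.09 to 0.60, limma adjusted p 0.0418), from 481 ± 48.4 to 617 ± 29.9 (SD, n = 2), while against GFP the change of 0.25 was not called (interval -0.01 to 0.50, adjusted p 0.159). In summed TPM the RBMXL3 libraries were again highest, at 56.2 and 61.3 TPM against 39.3 to 48.0 in the controls, or log2 0.38 against WT and 0.47 against GFP (limma adjusted p 0.0823 and 0.0591). The call against WT was lost with DESeq2 (adjusted p 0.0538), with quantile normalization (limma 0.0547), without the filter on low values (0.095), and without WT replicate 1 (0.45, limma adjusted p 0.0696), WT replicate 2 (0.25, 0.224), RBMXL3 replicate 1 (0.40, 0.151) or RBMXL3 replicate 2 (0.30, 0.296). Exons of GPR137 lie opposite 23.7% of its exon bases, and GPR137 was not called in any comparison.

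BID (chr22:17734138-17774770, minus strand), which links death receptors to mitochondria once caspase-8 has cut it, had 164 and 177 normalised reads in WT, 200 and 162 in GFP, against 183 and 190 in RBMXL3. The RBMXL3 libraries lay between the GFP libraries, and the log2 changes were 0.046 against GFP (95% interval -0.27 to 0.36) and 0.11 against WT (-0.20 to 0.42), with limma adjusted p of 0.851 and 0.576. BIK (chr22:43110748-43129712, plus strand), a BH3-only protein of the endoplasmic reticulum, had 14 and 9 reads in WT, 15 and 5 in GFP, against 4 in each RBMXL3 library. As normalised reads these were 11.9 and 7.55, 13.9 and 5.30, and 5.15 and 4.28, so the RBMXL3 libraries were lowest, with GFP replicate 2 next to them. BIK did not pass the filter and was not tested, so neither a difference nor its absence can be stated at this depth.

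Over the gene table the 2 RBMXL3 libraries lay outside all 4 controls on the same side in 6 of the 9 tested genes, higher in MCL1, BCL2L11, BAD and BOK and lower in BCL2L1 and BCL2L2. Of all tested genes 46.1% did so, 22.5% above and 23.6% below. In summed TPM the RBMXL3 libraries were above all controls in BCL2L2, MCL1, BAK1, BID, BAD and BOK, where 27.5% of all genes were above and 12.7% below. MCL1, BAD and BOK were thus above the controls in both tables, BOK narrowly in the gene table. Both tables come from the same libraries, and the share of all genes above the controls in both is not given here. The median of all genes in summed TPM was itself shifted, by 0.13 in RBMXL3 against GFP, so changes there are read relative to it: against GFP, 0.34 for BAD, 0.31 for BID, 0.27 for BCL2L2, 0.24 for MCL1, 0.18 for BOK, 0.038 for BCL2L11, -0.0087 for BCL2L1 and -0.0053 for BAK1. Of the 8 genes tested in summed TPM, 0 were called against GFP (3 at an unadjusted p under 0.05 in limma), 0 against WT (2) and 0 between the controls (1), where 6.93%, 11.5% and 0% of all genes were called. BCL2L1 and BAK1, lower than GFP in the gene table, did not lie below it in unadjusted summed TPM, with 0.12 each.

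**Figure D3:**
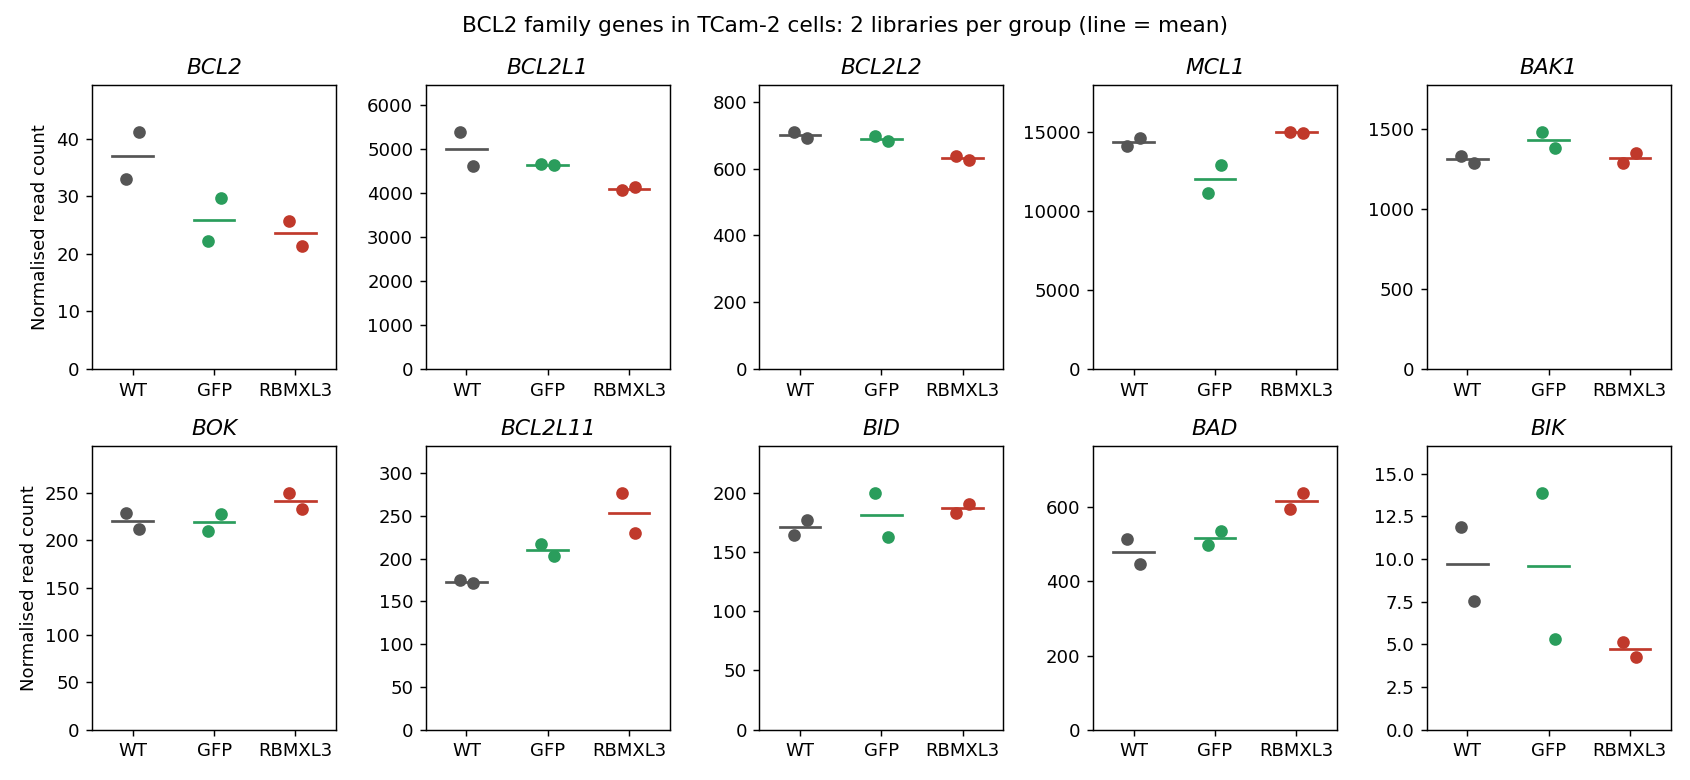
Normalised reads per library for each of the 10 genes, 2 points per group, with a line at the group mean and axes that start at 0. RBMXL3 points lie apart from both controls in BAD (596 and 638) and BCL2L1 (4062 and 4134), while in BAK1, BID and BCL2 they overlap a control.

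**Figure D4:**
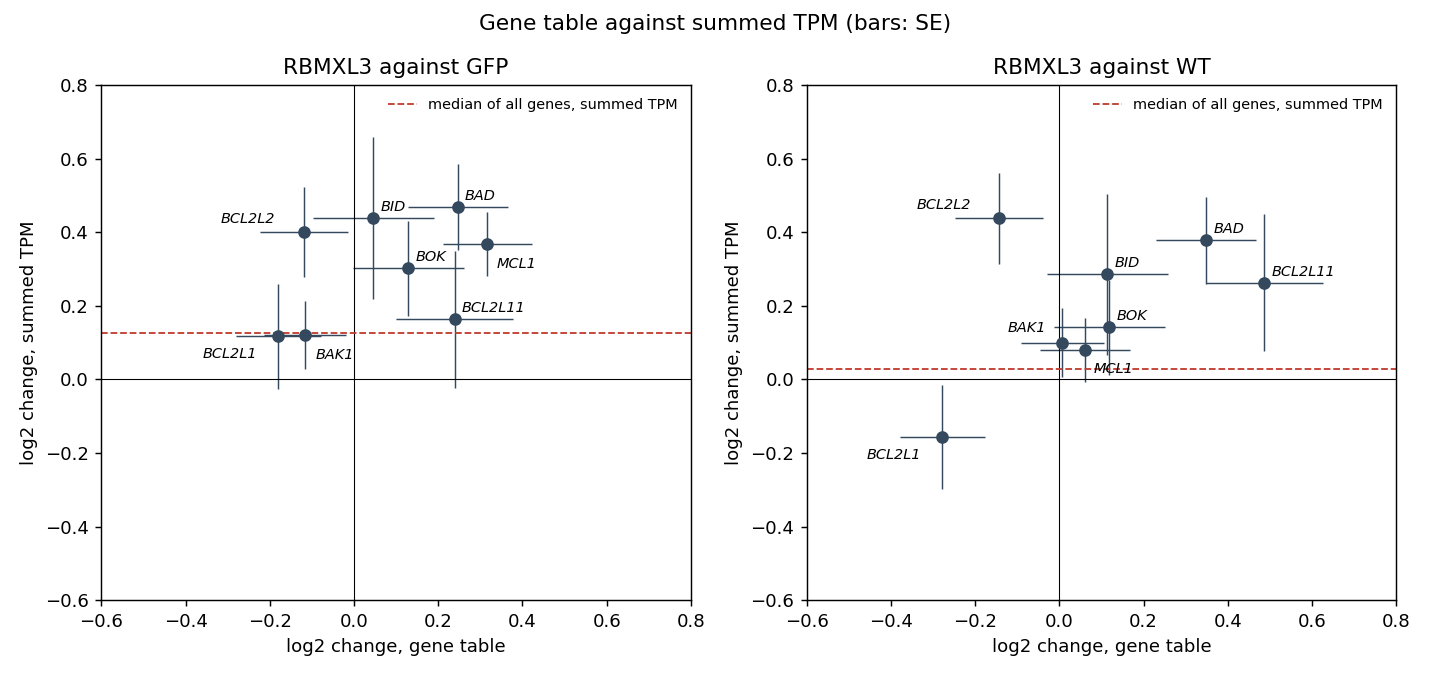
Log2 change in the gene table (x axis) against log2 change in summed TPM (y axis) for the 8 genes tested in both, with bars of 1 SE and a dashed line at the median of all genes in summed TPM. BCL2L2 lies in the upper left, lower in the gene table (-0.12 and -0.14) and higher in summed TPM (0.40 and 0.44), while BAD, BCL2L11, MCL1, BID and BOK are right of and above 0 in both panels.

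Transcripts were compared because several of these genes are textbook cases of splicing that turns a survival product into a death product. Usage of transcripts could be tested in MCL1, BCL2L1, BID and BAD, with 19 transcripts in all. The other 6 genes had fewer than 2 transcripts above the filter. In each of the 3 comparisons limma's diffSplice called 0 of the 4 genes, with 0, 1 and 0 at an unadjusted p under 0.05 (RBMXL3 with GFP, RBMXL3 with WT, and the controls, in that order), where 12%, 12% and 1.72% of all genes were called. The test of transcript shares also called 0 of the 4, where 2.5%, 2.42% and 0.484% of all genes were called. TPM keeps no depth, so the shares below carry no counting interval.

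MCL1 makes a long survival product and a short product that lacks the second exon. The long transcript, MCL1-202 with 350 codons, took 94.0% and 92.2% of all MCL1 TPM in WT, 87.7% and 94.3% in GFP, against 92.6% and 93.9% in RBMXL3. The short transcript, MCL1-201 with 271 codons, took 2.72% and 4.88% in WT, 10.3% and 1.95% in GFP, against 3.88% and 2.98% in RBMXL3. GFP replicate 1 stood apart from the other 5 libraries in both, and the RBMXL3 libraries lay among the controls (diffSplice adjusted Simes p 0.598 against GFP and 0.912 against WT). The sequences show the exchange at the junction after exon 1, with the last 15 bases of exon 1 in lower case and the first 15 bases of the next exon used in capitals. Skipping of the exon, which is 248 bases long, joins base 150578843 of chromosome 1 to base 150577491 in place of base 150578491.
MCL1-202: agacggccttccaagGCATGCTTCGGAAAC
MCL1-201: agacggccttccaagGATGGGTTTGTGGAG

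BCL2L1 makes BCL-xL, and from a 5′ splice site farther upstream in the same exon the shorter BCL-xS, which promotes death. The transcripts of the 233 codon product BCL-xL, BCL2L1-201 and BCL2L1-203, together took 47.6% and 46.0% in WT, 46.6% and 48.7% in GFP, against 50.5% and 41.8% in RBMXL3. BCL2L1-202, the 170 codon transcript of BCL-xS with 189 coding bases fewer, was listed at 0 in both WT libraries, GFP replicate 1 and RBMXL3 replicate 1. It took 0.28% in GFP replicate 2 and 1.34% in RBMXL3 replicate 2. The rest, 49.5% to 56.9% per library, was assigned to transcripts whose annotated reading frame is incomplete, such as BCL2L1-206 and BCL2L1-207, and cannot be given to either product. No transcript of the gene was called (diffSplice adjusted Simes p 0.715 against GFP and 0.752 against WT). Below, the last 15 bases before each junction are in lower case and the shared downstream exon, which starts at base 31666086 of chromosome 20, is in capitals. The BCL-xL transcript leaves the upstream exon at base 31721655 and the BCL-xS transcript at base 31721844.
BCL2L1-203: gagaacggcggctggGATACTTTTGTGGAA
BCL2L1-202: cagagctttgaacagGATACTTTTGTGGAA

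BID had the lowest usage p of the 4 tested genes in both comparisons of RBMXL3. Transcripts of the full product with 195 codons, BID-209 and BID-215, took 79.0% and 96.6% of its TPM in WT, 75.9% and 83.3% in GFP, against 56.3% and 64.9% in RBMXL3. Transcripts of a 99 codon product, BID-203, BID-204 and BID-212, took 19.6% and 2.77% in WT, 21.5% and 15.7% in GFP, against 39.1% and 35.2% in RBMXL3. Both RBMXL3 libraries were above all controls for the short product. The annotated frame of BID-204 starts at base 17739423 of chromosome 22, on the minus strand, with 3 bases between it and the BH3 core printed above, so the short frame does not hold that core. BID-204 alone took 11.9% and 0% in WT, 17.1% and 13.7% in GFP, against 33.5% and 28.9% in RBMXL3, again above every control, as was the case for 15.4% of all transcripts tested by share. The change of BID was not called: the diffSplice Simes p was 0.153 against GFP (adjusted 0.382) and 0.00958 against WT (adjusted 0.0692), and the test of shares gave an adjusted p of 0.303 for BID-204 against WT. As TPM the short product was 1.67 and 0.267 in WT, 2.23 and 0.969 in GFP, against 4.62 and 3.77 in RBMXL3, which is low, and WT replicate 2 stood apart.

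BCL2L11 is spliced into BIM products of different length. The 198 codon transcript, BCL2L11-206, took 32.2% and 63.4% of the TPM in WT, 56.3% and 77.2% in GFP, against 80.1% and 45.5% in RBMXL3, so the replicates of each group differed by more than the groups did. BCL2L11-211, of the class marked for nonsense-mediated decay, was lower in both RBMXL3 libraries, at 5.91% and 6.26%, than in WT (25.9% and 20.0%) and GFP (28.97% and 13.6%), which held for 11.5% of all transcripts tested by share. BCL2L11-215, of the same class, was higher in RBMXL3 (4.01% and 13.6%) than in the controls (0% to 3.53%), and the class as a whole overlapped, at 9.92% and 19.9% in RBMXL3 and 17.1% to 31.2% in the controls. The gene's summed level was only 2.7 to 4.06 TPM, and with fewer than 2 transcripts above the filter these shares had no test. In BAD the 168 codon transcripts took 80.2% to 92.6% in every library, and BAD-206, a transcript with no reading frame, took 9.26% and 3.05% in WT, 4.63% and 10.8% in GFP, against 7.60% and 15.9% in RBMXL3. One transcript held nearly all of the TPM in BCL2L2 (94.96% to 98.95%), BAK1 (96.2% to 100%), BOK (100%) and BIK (100%). In BCL2, where few reads were counted, BCL2-201 moved between 0% and 86.1% from library to library, and the shares cannot be read.

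**Figure D5:**
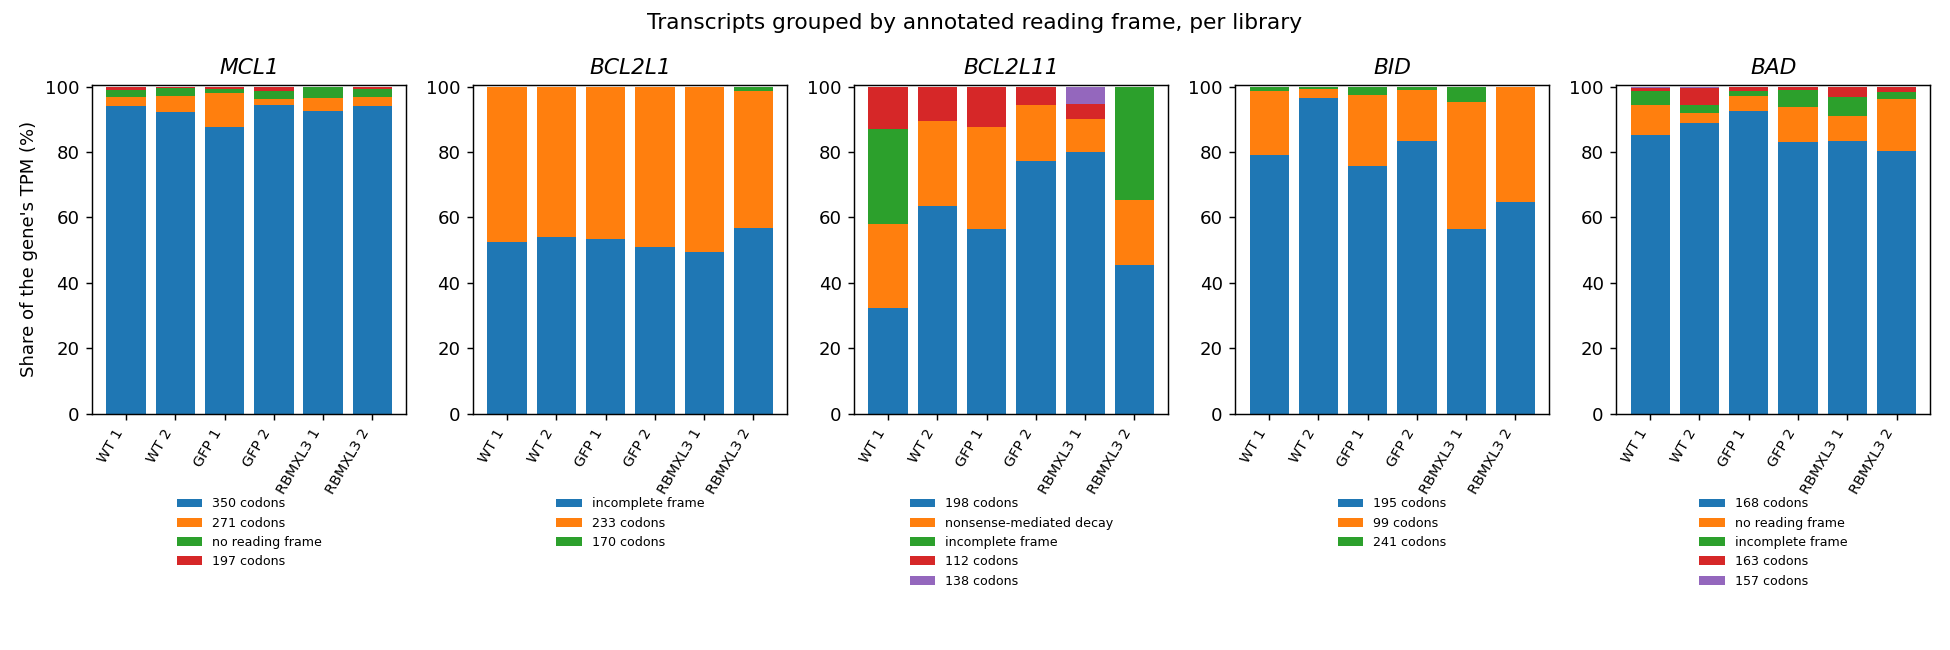
Share of the gene's TPM (%) by annotated reading frame in each of the 6 libraries for MCL1, BCL2L1, BCL2L11, BID and BAD, with stacked bars that sum to 100%. The 99 codon class of BID is largest in the RBMXL3 libraries (39.1% and 35.2%), the 350 codon class of MCL1 takes 87.7% to 94.3% throughout, and BCL2L11 varies between replicates.

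The rest of the pathway was described by lists. These lists were chosen with earlier results of these data known, so their shares of called genes are no independent test. Of a list of 16 other BCL2 family genes and partners of the family, 12 were tested. In RBMXL3 against GFP 3 were called higher and 2 lower, and against WT 5 higher and 2 lower, with median log2 changes of 0.13 and 0.25. That is 41.7% and 58.3% of the list, beside 20.9% and 29.9% of all genes, and 5 of the 12 were called against both controls, beside 13.7%. The 2 called lower in both comparisons, VDAC2 and MTCH2, are partners and not members, so these shares are not those of the family alone. PMAIP1, the gene of NOXA, which binds MCL1, had 1082 and 992 normalised reads in WT, 894 and 1591 in GFP, against 2630 and 2711 in RBMXL3. It rose by 1.15 against GFP and 1.35 against WT (limma adjusted p 0.00191 and 0.000413). The GFP libraries differed: the change against GFP was 0.74 without GFP replicate 1 and 1.55 without GFP replicate 2, both called, and without GFP replicate 1 GFP itself was called above WT (0.61, limma adjusted p 0.00596). PMAIP1 also rose in summed TPM by 0.92 against WT (limma adjusted p 0.0289), with 0.74 against GFP not called (0.0579). BBC3, the gene of PUMA, which binds all survival members, had 304 and 312 in WT, 363 and 374 in GFP, against 659 and 711 in RBMXL3. It rose by 0.85 and 1.09 (limma adjusted p 0.000698 and 6.94e-05), and was called in summed TPM as well (1.1 and 1.17, adjusted p 0.0114 and 0.0051). Both RBMXL3 libraries were above all 4 controls in both genes, as in 22.5% of all tested genes. The log2 changes were larger than those of BCL2L11, BAD and BID, which were 0.49 or less. Both genes were named because they were called with large changes, so this comparison is shaped by the choice and shows no difference between the lists. Other BH3-only genes of the list did not enter it. MIR3190 and MIR3191 share 2.52% and 2.39% of the exon bases of BBC3.

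VDAC2, a channel of the outer membrane that holds BAK at mitochondria, fell by 0.49 against GFP and 0.48 against WT (limma adjusted p 0.00682 and 0.00466), from 10424 and 10057 in WT and 9533 and 11074 in GFP to 7321 and 7319 in RBMXL3. It was also lower in summed TPM (-0.43 and -0.55, limma adjusted p 0.0403 and 0.0169). Its call was lost without either RBMXL3 library against both controls (limma adjusted p 0.0669 to 0.102), and against WT also without WT replicate 1 (0.0551). BNIP3L, a mitophagy receptor related to the BH3-only genes, rose by 0.48 and 0.56 (limma adjusted p 0.0134 and 0.0041), from 929 ± 83.4 in WT and 984 ± 133 in GFP to 1377 ± 38.7 (SD, n = 2), but was not called in summed TPM (adjusted p 0.333 and 0.131). Against GFP its call needed both RBMXL3 libraries (limma adjusted p 0.0862 and 0.14 without one). Against WT it was lost without WT replicate 1 (0.0675) or RBMXL3 replicate 2 (0.0554). The last gene called against both controls, MTCH2, a receptor for truncated BID, lies outside the rule for naming and is given after its values were seen. It fell by 0.51 and 0.35 (limma adjusted p 0.00279 and 0.0127), without a call in summed TPM, and lost both calls without either RBMXL3 library, and that against WT also without either WT library. The calls of BMF (0.47) and BAX against WT alone were likewise named after their values were seen.

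Among 14 tested caspases and mitochondrial release genes 0 were called in the same direction against both controls, with CASP6 alone called against GFP (-0.35), beside 20.9% of all genes, and against WT, among others, CASP2 and BIRC6 lower and HTRA2 higher. Of 11 death receptor genes 3 were lower against GFP (FAS, FADD and RIPK1), or 27.3% of the list beside 20.9% of all genes. Against WT 1 was higher (TNFRSF10B) and 4 were lower (RIPK1, CASP8, CASP10 and CFLAR), or 45.5% beside 29.9%. CASP8 and CFLAR hardly differed between RBMXL3 and GFP (log2 -0.004 and 0.046), while GFP against WT gave -0.45 and -0.33 (limma adjusted p 0.0502 and 0.0698). FAS was low, with means of 28.7 normalised reads in WT, 35.6 in GFP and 13.3 in RBMXL3. RIPK1, a kinase on the receptor complex, had 758 and 723 normalised reads in WT, 564 and 537 in GFP, against 391 and 380 in RBMXL3. It fell by 0.49 on the log2 scale against GFP and by 0.90 against WT (limma adjusted p 0.00938 and 0.000177), and lost the call against GFP without either RBMXL3 library (0.0849 and 0.124). In summed TPM it was lower against WT (-0.70, limma adjusted p 0.0277) and not called against GFP (-0.29, 0.217). Genes named here for 1 control alone were picked after their values were seen, and a call against 1 control does not show a difference between the controls.

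Of the 6 genes that act on MCL1 turnover, 2 were called lower against GFP and 4 against WT, with medians of -0.27 and -0.40, beside 20.9% and 29.9% of all genes called. BTRC, a ubiquitin ligase subunit, fell by 0.42 and 0.46 (limma adjusted p 0.0157 and 0.00678) without a call in summed TPM (0.657 and 0.951), and lost its calls without either RBMXL3 library (0.0692 to 0.15) and, against WT, without WT replicate 1 (0.0883). USP9X, which removes ubiquitin from MCL1, fell by 0.33 and 0.58 in the gene table (limma adjusted p 0.0437 and 0.00207). In summed TPM the sign was the opposite, at 0.67 and 0.49, with no call (limma adjusted p 0.109 and 0.188). Its call against GFP was lost without any of the WT libraries, GFP replicate 1 or the RBMXL3 libraries (limma adjusted p 0.063 to 0.281), with quantile normalization (0.125), with the replicate block (0.0738) and with edgeR (edgeR adjusted p 0.0512). FBXW7 and HUWE1 were lower against WT alone and are named after their values were seen.

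Of 17 splicing regulators studied on these genes, 4 were called higher and 1 lower against GFP, and 1 higher and 2 lower against WT, or 29.4% and 17.6% of the list beside 20.9% and 29.9% of all genes. SRSF1, a splicing factor that acts on MCL1 and BCL2L11 transcripts, had 1593 and 2147 normalised reads in WT, 1443 and 1935 in GFP, against 3094 and 3160 in RBMXL3. It rose by 0.89 and 0.75 in the gene table (limma adjusted p 0.00205 and 0.0031), and without WT replicate 1 the change against WT was 0.54 and not called (0.0687). In summed TPM it stood at -0.061 and -0.23, of opposite sign and uncalled (limma adjusted p 0.715 and 0.167). The gene AC015813.2 shares 56.6% of the exon bases of SRSF1 on the same strand, so its count is uncertain. In GFP against WT 0 genes of these 5 lists were called by limma.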

How the data were processed

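Polyadenylated RNA of 6 TCam-2 libraries was sequenced by the authors. Per the submitters' processing notes, reads were processed with Trim Galore 0.6.10, STAR 2.7.11a, Salmon 1.10.2 and DESeq2 on GRCh38; the read counter, annotation and strand setting are not given in the sources used here. The deposited gene table holds a normalised signal: read counts that the authors divided by 1 size factor per library, and 100% of its 145320 values above 0 gave whole reads within 0.01. The deposited transcript table holds TPM, which keeps no depth.

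Gene values were divided by a common factor of 23.9, kept where 2 or more libraries reached 1 (14292 genes) and tested as log2(value + 1) with limma 3.58.1 (R 4.3.3), in 1 fit of the 6 libraries with an intensity trend, two-sided, with Benjamini-Hochberg adjustment over all genes. Fold changes on this scale understate those of low genes. edgeR 4.0.16 and DESeq2 1.42.0 on the recovered reads were alternatives. The design had assumed CPM, so the filter and pseudocount refer to the rescaled value. TPM was summed over GENCODE 29 transcripts, which matched 80.0% of the transcripts and 94.7% to 95.1% of the TPM per library. Usage was tested with diffSplice on log2(TPM + 1) (36184 transcripts of 8882 genes), and an alternative tested arcsine square root shares with limma. Scripts were tested on simulated data.

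Named were all 10 genes, their transcripts with at least 10% of the TPM in a group, and in each list the genes called in the same direction against both controls, up to the 4 with the largest smaller change. The transcripts of shorter products of MCL1, BCL2L1 and BID below that share were added after their values were seen. The genes and lists were chosen with earlier results of these data known. Protein sequences and their identity were not used here; BH3 cores were read as codons. A result for 1 list gene is not reported here.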

Additional observations from a re-analysis of the deposited data

How the results depend on the processing

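The number of the 9 genes called in RBMXL3 against GFP was 0, and it was 1, MCL1 each time, with a mean value of at least 5, with quantile normalization and with DESeq2; leaving out 1 library at a time gave 0 to 1. Against WT it was 2, with 0 without the filter on low values, in summed TPM and with a minimum absolute log2 change of 1, 1 with quantile normalization, DESeq2 or the replicate block, and 0 to 3 with 1 library left out. Between the controls it was 0, with 0 to 1 when 1 library was left out. Dropping the filter adds genes of low values to the fit, and leaving out a library leaves 1 in its group; for the other alternatives the cause was not tested. Without the filter the list genes PMAIP1, VDAC2, BNIP3L, BTRC, USP9X and SRSF1 also lost their call against GFP, and SRSF1 that against WT. The count of the 4 genes with a usage call was 0 under every alternative run, while 1 single transcript, BCL2L1-204, was called against WT without WT replicate 2 (log2 usage change 2.26, limma diffSplice adjusted p 0.0419). In summed TPM the changes of USP9X (0.67 against GFP and 0.49 against WT) and SRSF1 (-0.061 and -0.23) had the opposite sign to the gene table, and the cause was not tested. Of the 804 alternative values for the log2 changes of these genes and the list genes, 710 kept their side of the threshold, 78 lost a call, 12 gained one and 4 reversed, and 464 of 465 usage values kept theirs. An uncalled value changed sign without a call in 76 cases.

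The labels number the replicates, but same-numbered libraries did not deviate together: their correlations over genes were -0.156 for WT and GFP, 0.034 for WT and RBMXL3 and -0.094 for GFP and RBMXL3. With the replicate block the calls over all genes went from 2986 to 2386, 4271 to 3697 and 524 to 191 (RBMXL3 with GFP, RBMXL3 with WT, and the controls), BAD lost its call against WT (limma adjusted p 0.0675), and USP9X that against GFP (0.0738). With the GFP numbers exchanged, an alternative chosen after the data were seen, 1049 genes and 0 of the 9 were called in GFP against WT.

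Depth limits BCL2 (20 to 49 reads) and BIK (4 to 15 reads) most, where differences below the spread could not be seen. With 2 libraries per group every call rests on a spread shared by the 3 groups.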
